A study of Mus musculus with 8 samples.

Results

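Type I interferon stimulated genes are the genes that cells switch on when interferon alpha or beta binds its receptor, and 34 of them were followed here in mouse liver during antibody blockade of CD47. The members are a list of symbols named for their function; no measured value enters the rule, but the list was drawn up with earlier results of these data known. They were found by gene identifier through the symbols in the authors' deposited table. All 34 were found among the 54309 genes of the count table, and all 34 lay among the 15472 genes with enough counts to be tested. The livers came from male C57BL/6 mice fed a fructose, palmitate and cholesterol diet for 16 weeks, which gives nonalcoholic steatohepatitis (NASH), a fatty, inflamed and scarring liver. Both groups ate this diet. From week 8 to week 16 one group received IgG, the control antibody, by injection into the abdomen, and the other received an antibody against CD47 at 200 µg per mouse. CD47 is a surface protein that restrains engulfment by macrophages through their receptor SIRPα. From each group 4 libraries were analysed, IgG 1 to 4 and antiCD47 1 to 4, where the series describes 7 to 8 mice per group. The age of the mice, a group on normal chow and any genetic alteration are not given in the sources used here, so every comparison is between 2 treatments of diseased livers. The described design includes no infection, and liver tissue as a whole was sequenced, so hepatocytes, immune cells and vessel cells all contributed RNA.

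Type I interferons bind the receptor pair IFNAR1 and IFNAR2, whose kinases JAK1 and TYK2 phosphorylate STAT proteins. STAT2 and IRF9 are parts of the complex ISGF3, which binds the interferon stimulated response element in the promoters of the genes described here. The products bind viral RNA, block viral entry or translation, attach the ubiquitin-like protein ISG15 to other proteins, or end the signal again. In liver the same genes are known to respond in hepatocytes, Kupffer cells and sinusoidal endothelial cells, and many of them also respond to interferon gamma, which works through the gamma activated sequence.

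The response element is shown first because it is the DNA feature the genes are known for. Its core, searched on both strands, was taken as GAAA, any 2 bases and GAAA again, in RefSeq promoter windows of 300 bases (250 before the start site and 50 after it, build GRCm38.p6). Of the members, 25 had such a window, and 14 of these genes held the element, against 3.44% of all 32851 windows. Irf9 and Ifit2 had more than a single window, so the member counts are of genes while the shares are of windows. The 6 stretches below belong to members with a match that the results turn on, and they are printed on the gene's own strand with the matches in capitals. A match in the other orientation reads TTTC, any 2 bases and TTTC.
Ifitm2, chr7:140955978-140956027, minus strand: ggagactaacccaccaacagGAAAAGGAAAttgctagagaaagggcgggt
Oas3, chr5:120777705-120777754, minus strand: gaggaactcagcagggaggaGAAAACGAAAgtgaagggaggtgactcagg
Isg15, chr4:156200855-156200916, minus strand: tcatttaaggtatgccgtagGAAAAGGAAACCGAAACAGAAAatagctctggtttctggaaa
Ifit1, chr19:34640765-34640833, plus strand: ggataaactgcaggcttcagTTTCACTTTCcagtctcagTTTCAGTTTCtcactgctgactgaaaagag
Stat2, chr10:128270256-128270305, plus strand: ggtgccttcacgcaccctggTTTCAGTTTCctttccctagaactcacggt
Rsad2, chr12:26456543-26456592, minus strand: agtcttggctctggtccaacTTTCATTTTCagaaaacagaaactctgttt
Isg15 held 3 overlapping matches in a single run of repeats, between 57 and 78 bases before its start site. Ifit1 held 2 separate matches between 76 and 104 bases before its start, both in the other orientation. Ifitm2 had its match within 46 bases of the start, and Oas3 within 75 bases. Stat2 had its match 213 to 222 bases before the start, near the far end of the window.

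Some members are near copies of each other, and their promoters show it.
Ifit3, chr19:34583353-34583436, plus strand: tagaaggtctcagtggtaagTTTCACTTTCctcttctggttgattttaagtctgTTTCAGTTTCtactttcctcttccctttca
Ifit3b, chr19:34607749-34607832, plus strand: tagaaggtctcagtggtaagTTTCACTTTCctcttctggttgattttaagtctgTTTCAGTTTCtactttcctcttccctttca
Oas1a, chr5:120907526-120907565, minus strand: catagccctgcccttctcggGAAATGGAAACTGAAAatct
Oas1g, chr5:120887614-120887651, minus strand: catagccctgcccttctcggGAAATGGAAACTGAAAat
The Ifit3 and Ifit3b stretches are letter for letter the same, and those of Oas1a and Oas1g run together up to the start site. Reads from such pairs may have been split uncertainly between the copies, so the separate values of Ifit3, Ifit3b, Oas1a and Oas1g carry that limit. Bst2, Ddx58, Ifih1 and Ifitm3 complete the 14 genes with a match. The gamma activated sequence TTCNNNGAA was found for 5 of the 25 genes with a window (Bst2, Ifi35, Ifit2, Ifitm3 and Oas1a), against 8.3% of all windows. No sequence window was given for Dhx58, Ifi27, Ifi27l2a, Mx1, Mx2, Oas2, Parp14, Rtp4 and Usp18. A match describes letters only and shows no binding.

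In the antiCD47 livers 4 of the 34 genes rose: Ifitm1, Ifitm2, Mx2 and Oas3. None fell. The rise was 2.08-fold for Ifitm1, 1.84-fold for Mx2, 1.72-fold for Ifitm2 and 1.61-fold for Oas3 (4 libraries per group). Among all genes tested 5.44% were higher and 5.4% were lower at the same threshold, 0.05 for the adjusted p (two-sided quasi-likelihood test of edgeR, Benjamini-Hochberg adjustment over all genes), so the members' share of 11.8% higher rests on 4 genes. At an unadjusted p of 0.05, 12 members were higher (background 16.6% of genes) and 1 was lower (16.0%). The direction was shared more widely than the calls: 30 of 34 members had a log2 fold change above 0, against 49.0% of all genes, and the median member was at 0.31 against -0.01 for all genes. Scaling by library totals in place of TMM moved the median of all genes to -0.19. With it 22 members were above 0 (26 with upper quartile scaling), and 2 members (Ifitm1 and Ifitm2) were past the threshold as higher and 1 (Usp18) as lower.

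**Figure D1:**
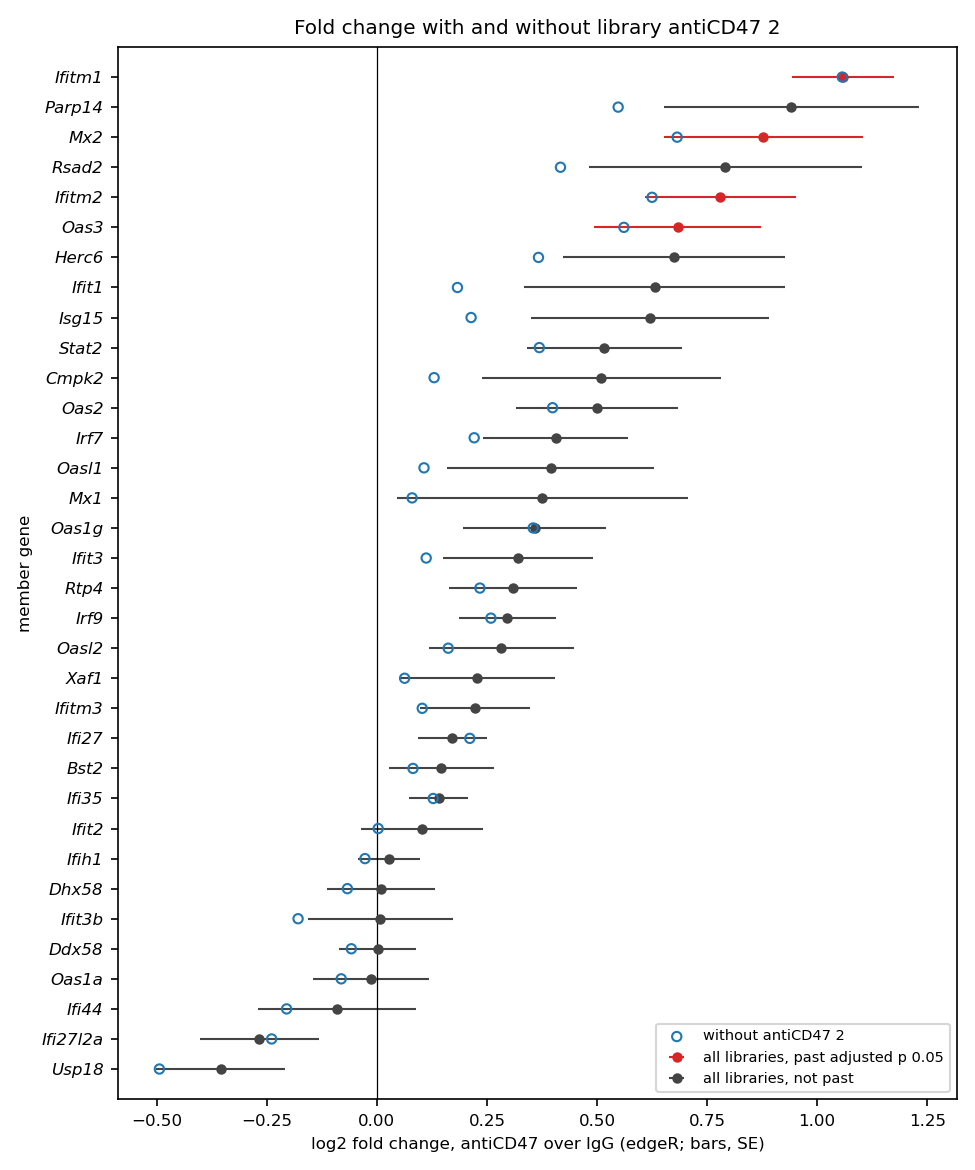
Log2 fold change (antiCD47 over IgG) of each of the 34 members, ordered by size; filled points are from all 8 libraries with the standard error as a bar (red where the adjusted p is under 0.05), and open circles are the values without antiCD47 2. Filled points lie to the right of 0 for 30 members, and the open circle falls on the filled point for Ifitm1 but to its left for Parp14, Rsad2, Ifit1 and Isg15.

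Levels are given below as CPM, the usual scaled count with the library size corrected by TMM. Fold changes are on the log2 scale with a standard error (SE), and group levels are mean ± SD over 4 libraries. The SE was derived from the test, as the absolute log2 fold change divided by the square root of the quasi-likelihood F statistic. In bulk tissue fewer cells of a type and less RNA per cell cannot be told apart, and this applies to every value here. Per kilobase of merged exons, the most abundant members in IgG were Ifitm3 at 310 CPM per kb, Ifitm2 at 161 and Bst2 at 125. Ifi27 followed at 30.5 CPM per kb. At the low end were Mx2 at 0.571, Oas3 at 0.543 and Mx1 at 0.323 CPM per kb. The 4 genes that rose thus lay at both ends of the scale, with Ifitm1 between them at 5.98 CPM per kb in IgG and 12.4 in antiCD47. In antiCD47 the order of the first 4 was the same, with Ifitm2 at 276 CPM per kb and Ifitm3 at 362.

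The IFITM proteins sit in cell and endosome membranes and hinder the fusion of enveloped viruses with the cell. Ifitm1 stood at 6.25, 5.71, 7.75 and 6.45 CPM in IgG 1 to 4 and at 11.9, 13.7, 15.4 and 13.5 CPM in antiCD47 1 to 4. The groups lay far apart, and every antiCD47 library was above every IgG library. Ifitm1 rose from 6.54 ± 0.863 to 13.6 ± 1.41 CPM, a log2 fold change of 1.06 ± 0.12 (edgeR adjusted p = 0.0113). It passed in 18 of 19 alternative analyses, and its adjusted p was 0.0583 in the remaining one, without IgG 4. In that fit 2 genes of the whole table were called higher and 0 lower. Ifitm2 stood at 98.0, 119, 107 and 97.2 CPM in the IgG libraries and at 128, 237, 204 and 155 CPM in the antiCD47 libraries. Here too the groups did not overlap, but the antiCD47 libraries were spread wider, at 181 ± 48.6 CPM against 105 ± 10.2 in IgG. Ifitm2 rose by 0.78 ± 0.17 (edgeR adjusted p = 0.028). Leaving out IgG 1, IgG 3, IgG 4 or antiCD47 3 lost the call, with a highest adjusted p of 0.0854. These omissions cut the calls over the whole table too, from 842 genes higher to 91, 47, 2 and 17, in that order. Calls lost below on leaving out these libraries come from the same fits, so such a loss is not particular to the gene.

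Ifitm3, the most abundant member, did not pass the test. Its levels were 191, 243, 199 and 207 CPM in IgG and 206, 304, 244 and 227 CPM in antiCD47, so the groups overlapped (log2 fold change 0.22 ± 0.12, edgeR adjusted p = 0.242). Ifitm2, Ifitm1 and Ifitm3 are neighbours on chromosome 7 in the RefSeq gene order with no other protein-coding gene between them, and 2 of the 3 rose. Bst2, which encodes tetherin, a protein that holds budding viruses on the cell surface, was at 113 ± 17.0 CPM in IgG and 125 ± 14.9 CPM in antiCD47 (0.15 ± 0.12, edgeR adjusted p = 0.418).

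Mx proteins are dynamin-like GTPases that trap viral nucleocapsids. C57BL/6 and most other inbred laboratory mice are known to carry defective copies of both genes. Mx2 stood at 1.66, 2.38, 2.07 and 2.14 CPM in IgG 1 to 4 and at 2.44, 5.24, 4.03 and 3.47 CPM in antiCD47 1 to 4. The groups did not overlap, although antiCD47 1 was only just above IgG 2. Mx2 rose from 2.06 ± 0.300 to 3.80 ± 1.17 CPM, by 0.88 ± 0.23 (edgeR adjusted p = 0.0406). Leaving out IgG 1, IgG 3, IgG 4, antiCD47 2, antiCD47 3 or antiCD47 4 in turn lost the call each time. The edgeR adjusted p values then ran up to 0.109. Of these fits, those without antiCD47 2 and antiCD47 4 still gave 368 and 824 genes of the whole table as higher. Mx1 was the scarcest member per length, at 0.883, 0.946, 1.51 and 1.56 CPM in IgG and 0.846, 2.48, 1.49 and 1.55 CPM in antiCD47. Apart from antiCD47 2 the Mx1 values of the groups covered the same range (0.38 ± 0.33, edgeR adjusted p = 0.454).

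**Figure D2:**
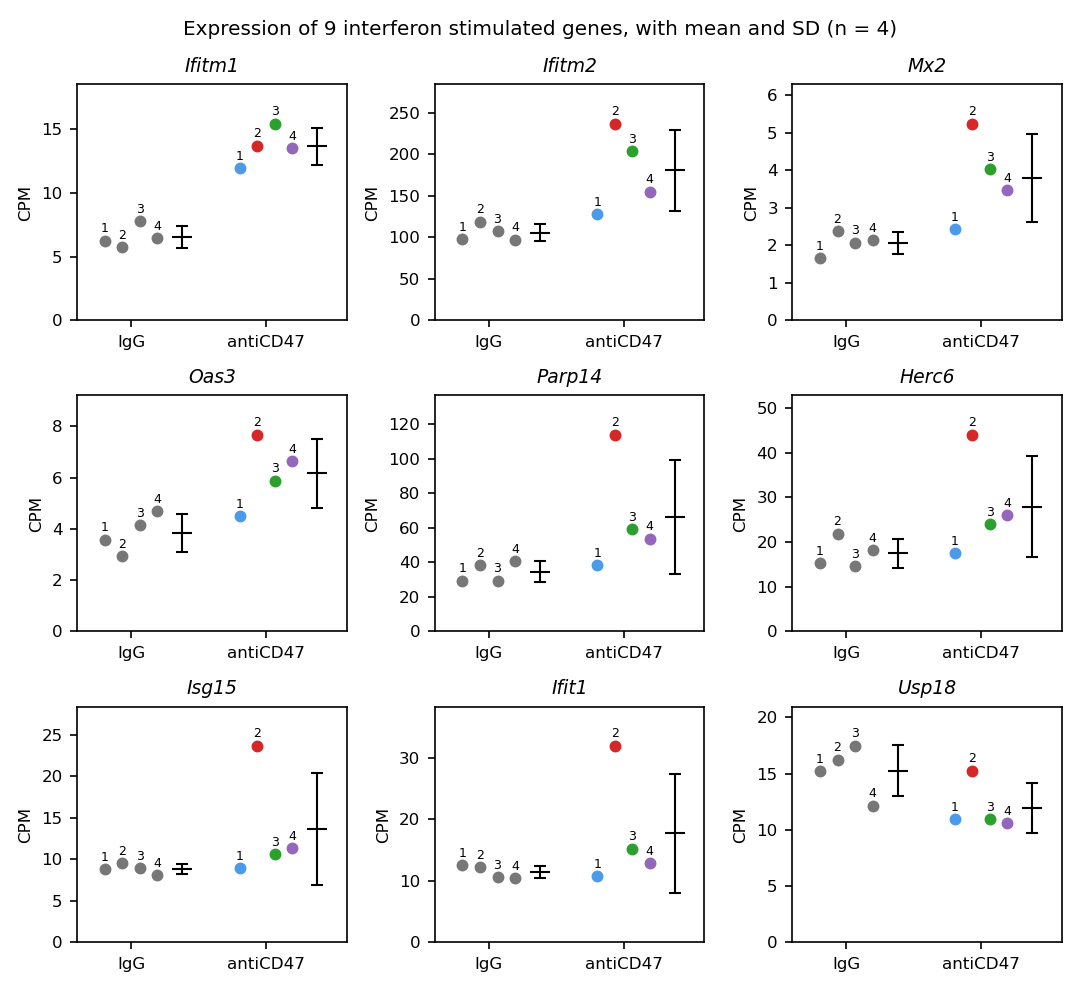
CPM in each numbered library for 9 members, IgG in grey and antiCD47 in colour, with the group mean and SD (n = 4) beside the points; each panel has its own axis from 0. The IgG and antiCD47 points of Ifitm1, Ifitm2 and Mx2 do not overlap, whereas antiCD47 2 stands alone far above the rest for Isg15 and Ifit1.

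The OAS enzymes sense double-stranded RNA and make 2'-5' oligoadenylates, which activate the nuclease RNase L; the related OASL proteins lack that activity or hold it weakly. Oas3 stood at 3.57, 2.95, 4.15 and 4.68 CPM in IgG and at 4.49, 7.67, 5.88 and 6.65 CPM in antiCD47. Only antiCD47 1 reached into the IgG range, just below IgG 4. Oas3 rose from 3.84 ± 0.748 to 6.17 ± 1.34 CPM, by 0.68 ± 0.19 (edgeR adjusted p = 0.0489). It sat close to the threshold and passed in 8 of 19 alternatives, with adjusted p between 0.00776 and 0.148. Leaving out any library other than antiCD47 1 lost the call. Among these fits, those without IgG 2 and antiCD47 4 still gave 797 and 824 genes of the whole table as higher.

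Its neighbour Oas2 stood at 2.54, 2.16, 3.58 and 3.25 CPM in IgG and at 3.62, 4.93, 4.26 and 3.52 CPM in antiCD47 (0.50 ± 0.18, edgeR adjusted p = 0.0975). AntiCD47 1, 2 and 3 lay above all IgG libraries, but the test was not passed. Oas1g was at 1.49, 2.20, 2.12 and 2.14 CPM in IgG and at 2.32, 2.58, 2.46 and 2.87 CPM in antiCD47. Its groups did not overlap, yet the difference missed the threshold (0.36 ± 0.16, edgeR adjusted p = 0.16). Groups that do not overlap were seen for 4 members with antiCD47 above (Ifitm1, Ifitm2, Mx2 and Oas1g) and 0 members with antiCD47 below, against 9.51% and 10.1% of all genes, so the upper share of 11.8% was close to the background. Oas1a, the near copy of Oas1g, was level at 8.73 ± 1.04 and 8.66 ± 1.33 CPM (-0.01 ± 0.13, edgeR adjusted p = 0.956). Oasl1 was at 10.1 ± 1.93 and 13.3 ± 4.93 CPM, and Oasl2 at 14.9 ± 2.58 and 18.1 ± 3.74 CPM, neither past the threshold (edgeR adjusted p = 0.27 and 0.262).

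Of the signalling and feedback genes 0 of 6 passed in either direction (5.44% and 5.4% of all genes), and their median was 0.46. At an unadjusted p under 0.05, however, 5 were higher and 1, Usp18, was lower, against 16.6% and 16.0% of all genes. Stat2, the STAT known for type I and III signalling, was at 29.2, 44.8, 34.4 and 40.7 CPM in IgG and at 43.5, 68.9, 57.7 and 43.1 CPM in antiCD47. AntiCD47 2 and 3 lay above all IgG libraries, and antiCD47 1 and 4 inside their range. The group levels were 37.3 ± 6.86 and 53.3 ± 12.4 CPM (0.52 ± 0.18, edgeR adjusted p = 0.0804). Stat2 passed in 4 of 19 alternatives, among them the fit without antiCD47 1 (adjusted p = 0.0403). Irf9, the DNA-binding partner in ISGF3, was at 25.1, 35.7, 28.3 and 27.3 CPM in IgG and at 33.1, 38.6, 37.6 and 33.7 CPM in antiCD47 (0.30 ± 0.11, edgeR adjusted p = 0.0992; past in 4 of 19 alternatives). Here a single IgG library, IgG 2, reached the antiCD47 range.

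Irf7, the factor that amplifies interferon alpha transcription, was at 32.2, 36.1, 43.7 and 42.1 CPM in IgG and at 40.3, 69.5, 46.5 and 47.8 CPM in antiCD47. Its means were 38.5 ± 5.33 and 51.0 ± 12.8 CPM (0.41 ± 0.17, edgeR adjusted p = 0.124), and it passed only without antiCD47 1 (adjusted p = 0.0482). Isg15, the ubiquitin-like modifier, was at 8.85, 9.57, 8.96 and 8.11 CPM in IgG and at 8.93, 23.7, 10.6 and 11.3 CPM in antiCD47. A single library, antiCD47 2, carried most of that difference. Isg15 had a log2 fold change of 0.62 ± 0.27 (edgeR adjusted p = 0.145), which became 0.21 without antiCD47 2 (adjusted p = 0.235), and it passed in none of the 19 alternatives. Herc6, the main ligase that attaches ISG15 in mice, was at 15.2, 21.9, 14.6 and 18.1 CPM in IgG and at 17.5, 44.0, 24.0 and 26.0 CPM in antiCD47 (0.68 ± 0.25, edgeR adjusted p = 0.102; past in 4 of 19 alternatives).

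Usp18 takes ISG15 off again and shuts down the type I receptor, and it was the member with the lowest log2 fold change. It was at 15.2, 16.2, 17.5 and 12.2 CPM in IgG and at 11.0, 15.3, 10.9 and 10.6 CPM in antiCD47. AntiCD47 1, 3 and 4 were below all IgG libraries, and antiCD47 2 was among the IgG values. The group levels were 15.3 ± 2.28 and 11.9 ± 2.22 CPM (-0.35 ± 0.15, edgeR adjusted p = 0.128), with the call as lower made in 2 of 19 alternatives, library totals (adjusted p = 0.0258) and voom with quality weights (adjusted p = 0.0271).

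The RNA sensors were the flattest group, with 0 of 3 past the test and a median of 0.01. Ifih1, which encodes the long double-stranded RNA sensor MDA5, was at 35.9, 36.5, 37.0 and 39.5 CPM in IgG and at 36.4, 42.1, 36.9 and 36.3 CPM in antiCD47. Apart from antiCD47 2 all 7 libraries lay within 35.9 to 39.5 CPM (0.03 ± 0.07, edgeR adjusted p = 0.817). Ddx58, which encodes the 5'-triphosphate RNA sensor RIG-I, was at 27.1 ± 2.16 and 27.1 ± 2.54 CPM (0.00 ± 0.09, edgeR adjusted p = 0.991). Dhx58, which encodes LGP2, a helper of both sensors, was at 10.01, 9.89, 13.5 and 10.9 CPM in IgG and at 10.6, 12.9, 11.2 and 9.89 CPM in antiCD47 (0.01 ± 0.12, edgeR adjusted p = 0.963). All 3 sensors turned negative under scaling by library totals or the upper quartile. Both Ifih1 and Ddx58 hold the response element in their windows, as do Ifitm2 and Oas3, whereas the window of Ifitm1, the member with the smallest adjusted p, holds no match. Members with the element had a median log2 fold change of 0.34 (14 genes, 2 past the test), and members with a window but no match 0.30 (11 genes, 1 past the test).

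The IFIT proteins bind viral RNA through its 5' end and block its translation; 0 of the 4 genes passed. Ifit1 was at 12.5, 12.2, 10.6 and 10.5 CPM in IgG and at 10.8, 31.9, 15.2 and 12.9 CPM in antiCD47. As with Isg15, the high value of antiCD47 2 set the group mean of 17.7 ± 9.65 CPM, against 11.4 ± 1.04 CPM in IgG (0.63 ± 0.30, edgeR adjusted p = 0.172; 0.18 without antiCD47 2, adjusted p = 0.399). Ifit3 was at 31.0, 28.2, 32.1 and 29.0 CPM in IgG and at 27.4, 52.6, 36.8 and 33.2 CPM in antiCD47 (0.32 ± 0.17, edgeR adjusted p = 0.219). Ifit2 was at 12.6 ± 1.23 and 13.5 ± 2.57 CPM, and Ifit3b at 8.64 ± 0.357 and 8.69 ± 2.32 CPM (edgeR adjusted p = 0.638 and 0.977). The IgG libraries of Ifit1, Ifit3 and Ifit3b were tightly grouped, and the spread lay in the antiCD47 libraries.

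Rsad2 encodes viperin, which makes a chain-terminating nucleotide from CTP, and Cmpk2, its direct neighbour on chromosome 12, encodes a mitochondrial nucleotide kinase that supplies CTP. Rsad2 was at 10.7, 10.3, 11.9 and 8.82 CPM in IgG and at 8.38, 30.4, 16.6 and 16.9 CPM in antiCD47. Cmpk2 showed the same order of the antiCD47 libraries 1 and 2, at 7.67, 8.15, 7.52 and 7.19 CPM in IgG and 6.26, 18.4, 9.58 and 9.22 CPM in antiCD47. In both genes antiCD47 1 was the lowest of all 8 libraries and antiCD47 2 the highest. Rsad2 had a log2 fold change of 0.79 ± 0.31 (edgeR adjusted p = 0.114; past in 2 of 19 alternatives), and Cmpk2 one of 0.51 ± 0.27 (edgeR adjusted p = 0.222; past in none).

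Among the remaining 7 members none passed. Parp14, an ADP-ribosyltransferase, came closest. It was at 29.5, 38.4, 29.5 and 40.9 CPM in IgG and at 38.4, 114, 59.4 and 53.8 CPM in antiCD47. AntiCD47 2, 3 and 4 were above the IgG range and antiCD47 1 was inside it. Parp14 went from 34.6 ± 5.99 to 66.4 ± 33.0 CPM (0.94 ± 0.29, edgeR adjusted p = 0.0636). It passed in 5 of 19 alternatives; its log2 fold change was 0.55 without antiCD47 2 (adjusted p = 0.0891) and 1.13 without antiCD47 1 (adjusted p = 0.0162). Ifi27, which encodes a small mitochondrial and nuclear membrane protein, was at 48.5, 44.0, 45.0 and 41.5 CPM in IgG and at 49.2, 46.2, 49.7 and 56.5 CPM in antiCD47 (0.17 ± 0.08, edgeR adjusted p = 0.163). Its neighbour and relative Ifi27l2a was at 9.14 ± 1.68 and 7.59 ± 0.583 CPM (-0.27 ± 0.14, edgeR adjusted p = 0.2). Ifi44, Ifi35, Xaf1 and Rtp4 had log2 fold changes between -0.09 and 0.31 with adjusted p between 0.173 and 0.756 (edgeR).

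**Figure D3:**
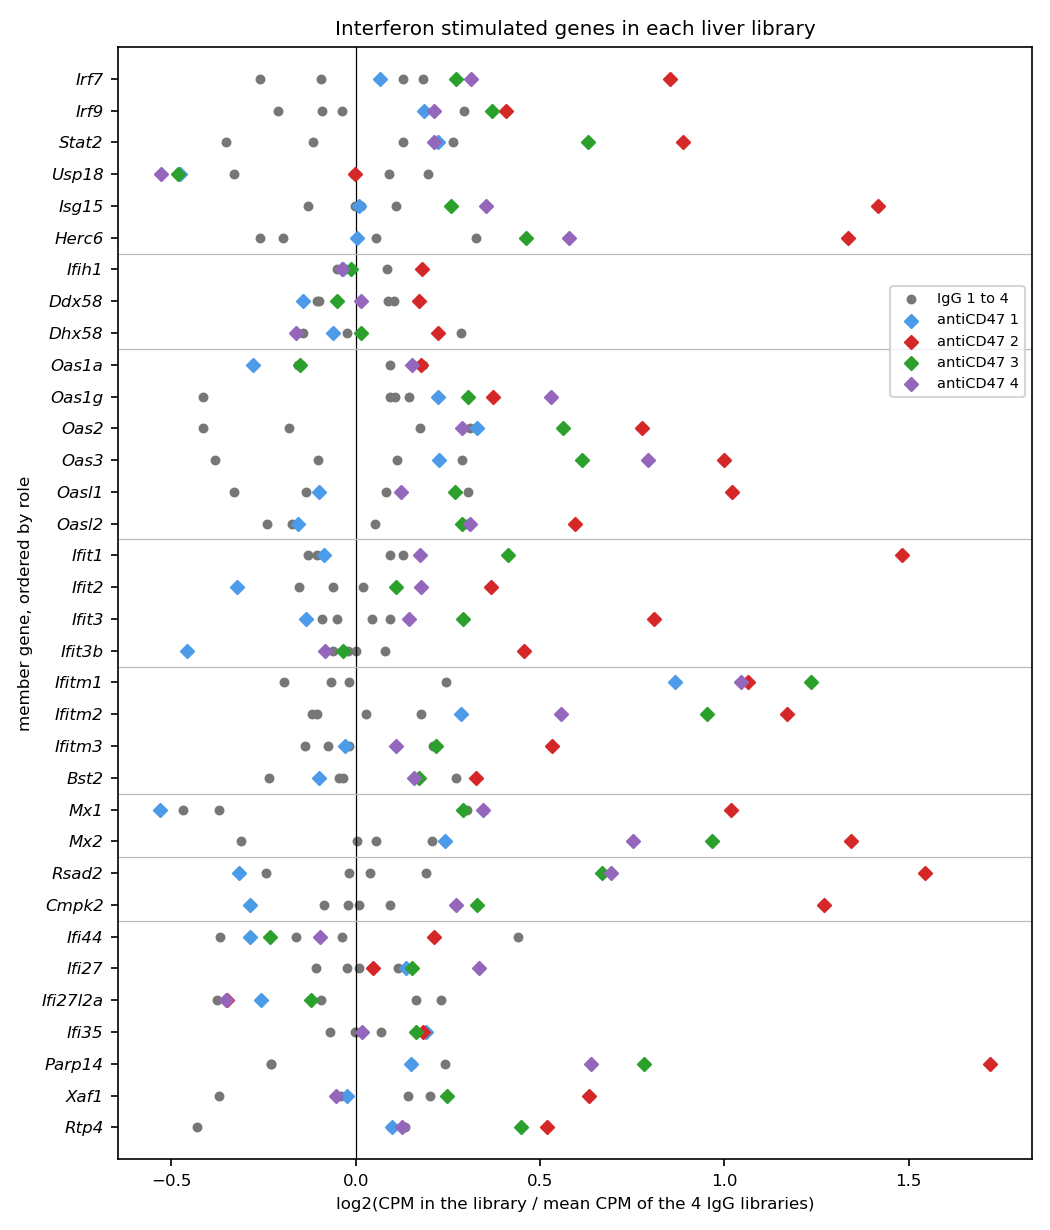
CPM of each member in each of the 8 libraries divided by the mean of the 4 IgG libraries, on a log2 axis, with members ordered by role and grey lines between the role groups. The antiCD47 2 points are the highest of 8 for 25 of 34 members, and those of antiCD47 1 are inside the IgG range for 18.

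The 4 antiCD47 libraries did not hold equal amounts of these transcripts. AntiCD47 2 was the highest of all 8 libraries for 25 of 34 members (73.5%), a position it held for 26.8% of all genes tested. It lay above every IgG library for 28 members (36.6% of all genes), antiCD47 3 for 21 (30.7%), antiCD47 4 for 16 (30.3%) and antiCD47 1 for 7 (24.1%). AntiCD47 1 was the lowest of its group for 25 members (29.0% of all genes) and fell within the IgG range for 18 members, or 52.9%, near the 51.5% of all genes. The median member, as log2 CPM minus its IgG mean, was at -0.10, -0.02, 0.03 and 0.07 in IgG 1 to 4 and at -0.03, 0.63, 0.29 and 0.20 in antiCD47 1 to 4. Thus 3 of 4 antiCD47 libraries were above the IgG values and antiCD47 1 was among them.

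The excess of antiCD47 2 was uneven over the members. Its level divided by the mean of the other 3 antiCD47 libraries ran from 0.892 for Ifi27 to 2.46 for Ifit1, with a median of 1.35. The ratio was above 2 for 5 members: Ifit1, Isg15 (2.30), Parp14 (2.26), Cmpk2 (2.20) and Rsad2 (2.18). Ifitm1 was at 1.01 and Oas1g at 1.01, so the member with the smallest adjusted p was not one in which antiCD47 2 stood out. Without antiCD47 2 the median member was at 0.15, 26 members stayed above 0, and Ifitm1 (1.06, adjusted p = 0.0162) and Ifitm2 (0.63, adjusted p = 0.0475) passed, 2 of 34 against 2.34% of all genes higher. Without antiCD47 1 the median was 0.40 and 9 members passed as higher, 26.5% against 11.7% of all genes. Without IgG 2 and antiCD47 2 together Ifitm1, Ifitm2 and Irf9 passed, 3 of 34 against 3.7% of all genes. With all libraries, DESeq2 gave 8 members as higher (10.9% of all genes) and voom with quality weights 9 (13.8%).

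The authors' deposited table, whose reference group is not stated, gave the sign of antiCD47 minus IgG for 94.4% of the 14241 genes shared with the test. At an adjusted p of 0.05 the authors' deposited table listed 8 of 34 members as positive and 0 as negative, against 9.74% and 8.7% of its 14362 genes. By adjusted p in the authors' deposited table these were Ifitm1 (3.85e-10), Ifitm2 (0.000607), Parp14 (0.00985), Mx2 (0.0106), Oas3 (0.0127), Stat2 (0.034), Herc6 (0.0452) and Rsad2 (0.0485). They are the same 8 members that DESeq2 gave as higher here. Both lists come from the same libraries and are not independent results.

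Upstream of the members, the interferon genes themselves were hardly present. Of 19 type I and III ligand genes 17 had 0 counts in every library, which allows up to 0.0518 to 0.0695 CPM per library (3 counts of the TMM-scaled total; counting error only). Ifnb1, interferon beta, had 3 counts in IgG 2 and 0 elsewhere, and Ifnk had 1 count each in IgG 4 and antiCD47 1. None of the 19 could be tested. Whether ligand was made in other organs or at other times was not tested.

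Of 7 receptor signalling genes 1 rose. Jak1, the kinase shared by the type I, II and III receptors, was at 93.9, 97.8, 91.1 and 104 CPM in IgG and at 108, 175, 140 and 131 CPM in antiCD47 without overlap (0.52 ± 0.13, edgeR adjusted p = 0.0357). That call was lost on leaving out any IgG library or antiCD47 3. Without IgG 2 the whole table still had 797 genes higher. Ifnar1 (0.17 ± 0.09, edgeR adjusted p = 0.218) and Ifnar2 (0.11 ± 0.07, edgeR adjusted p = 0.276) did not pass.

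Of 15 genes that sense nucleic acids and relay the signal to the ligand genes 3 rose: the Toll-like receptor adaptor Myd88 (1.05 ± 0.22, edgeR adjusted p = 0.0257), the RIG-I ubiquitin ligase Trim25 (0.51 ± 0.12, edgeR adjusted p = 0.0308) and the kinase Tbk1 (0.63 ± 0.16, edgeR adjusted p = 0.0405). Each of the 3 lost its call without IgG 1, IgG 3, IgG 4 or antiCD47 3, and Trim25 and Tbk1 also without antiCD47 2. Myd88 went from 18.5 ± 4.59 to 38.3 ± 10.8 CPM with no overlap. The DNA sensor Cgas (0.32 ± 0.27, adjusted p = 0.43), its partner Sting1 (-0.10 ± 0.13, adjusted p = 0.632) and the factor Irf3 (0.10 ± 0.08, adjusted p = 0.388) did not pass in edgeR. Of 8 negative regulators 0 passed in edgeR, with 4 at an unadjusted p under 0.05, all higher, and 0 lower; Usp18 was counted among the members and not here.

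Of 29 further interferon induced genes 4 rose. These were the RNA exonuclease Isg20 (2.92 ± 0.245 to 5.81 ± 1.45 CPM; 0.99 ± 0.18, edgeR adjusted p = 0.0187), Parp9 (0.69 ± 0.13, edgeR adjusted p = 0.021), Tor3a (0.71 ± 0.14, edgeR adjusted p = 0.0217) and Dtx3l (0.54 ± 0.14, edgeR adjusted p = 0.041). All 4 lost the call without IgG 1, IgG 3, IgG 4 or antiCD47 3, and Dtx3l also without antiCD47 2. Parp9 and Dtx3l form an ADP-ribosylating ubiquitin ligase. Parp14, Dtx3l and Parp9 lie in that order on chromosome 16 with no other protein-coding gene between them. All 3 genes of that stretch were higher in antiCD47 2 than in any other library: Parp14 at 114, Parp9 at 111 and Dtx3l at 132 CPM.

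Of 21 tested genes of the interferon gamma list 3 rose: the guanylate binding proteins Gbp5 (1.93 ± 0.41, edgeR adjusted p = 0.0268) and Gbp4 (1.78 ± 0.44, edgeR adjusted p = 0.0368), and Cd274, which encodes PD-L1 (1.41 ± 0.35, edgeR adjusted p = 0.0369). Ifng, which encodes interferon gamma itself, had too few counts to be tested. Its counts were 0, 2, 0 and 2 in IgG 1 to 4 and 1, 3, 3 and 2 in antiCD47 1 to 4. Gbp5 was at 2.44, 3.82, 2.27 and 4.84 CPM in IgG and at 4.50, 19.9, 14.9 and 11.8 CPM in antiCD47. Again antiCD47 1 was within the IgG range and the other 3 antiCD47 libraries were above it. The median gene of the list was at 0.89, beyond the 0.31 of the type I members, a difference that was not tested. By library its median was at -0.38, 0.42, -0.40 and 0.56 in IgG 1 to 4 and at 0.00, 1.56, 1.08 and 0.86 in antiCD47 1 to 4, so the IgG libraries differed more among themselves than for the type I members. At an unadjusted p under 0.05, 37 of 80 pathway genes tested were higher and 0 lower (16.6% and 16.0% of all genes). Of the 21 interferon gamma genes 13 were among them, and of the 29 further induced genes 11. Sensing genes gave 8 of 15, negative regulators 4 of 8 and receptor signalling genes 1 of 7. Over all 6 pathway lists 11 of 80 tested genes rose at the adjusted threshold and 0 fell, against 5.44% and 5.4% of all genes. That count was 0 without IgG 1, IgG 3, IgG 4 or antiCD47 3, where 91, 47, 2 and 17 of all genes were higher. It was 5 without antiCD47 2 and 34 without antiCD47 1, where 368 and 1843 of all genes were higher. The IFN-gamma calls, like that of Mx2, were lost on leaving out several single libraries. Gbp5 lost its call without 5 of the 8, and Gbp4 and Cd274 without 7 of the 8. Those 7 included IgG 2 and antiCD47 4, without which 797 and 824 of all genes were still higher.

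**Figure D4:**
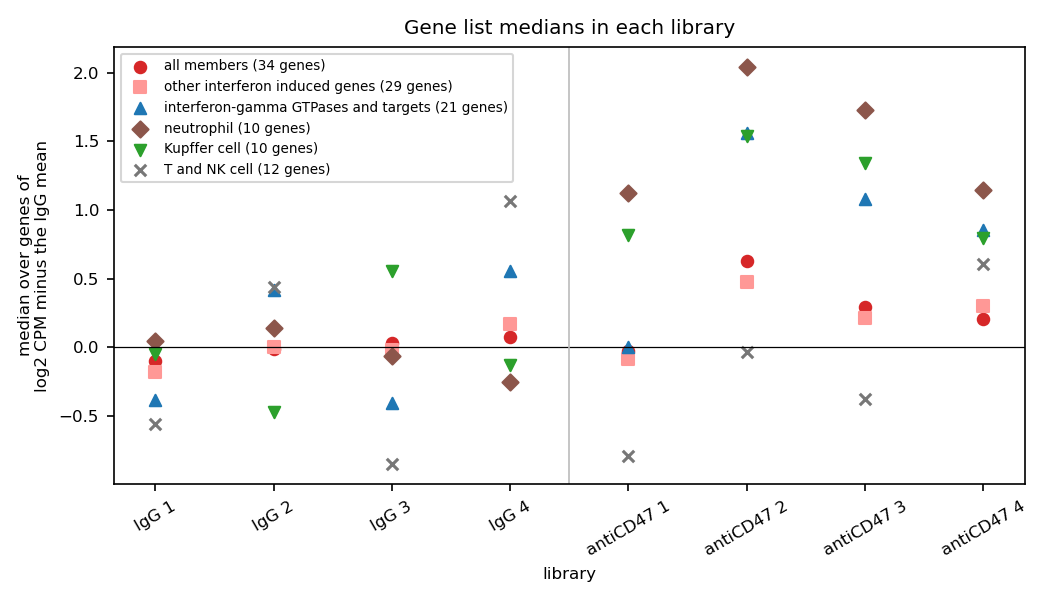
Median over each of 6 gene lists of log2 CPM minus its IgG mean, by library: the members, the other interferon induced genes, the interferon gamma list, and markers of neutrophils, Kupffer cells and T and NK cells. In antiCD47 1 the median of the members (-0.03) is among the IgG values while that of the neutrophil markers (1.12) is above them.

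Markers of several cell types moved with treatment beside these genes, and their part in the results was not tested. All 10 tested neutrophil markers of 13 rose. The summed level of the list was 7.43 to 10.02 CPM in IgG and 18.1 to 38.02 CPM in antiCD47. Ly6g had too few counts to be tested, with 0 in every IgG library and 3, 6, 5 and 1 in antiCD47 1 to 4. Of 10 Kupffer cell markers 7 rose (242 to 438 CPM in IgG, 450 to 761 CPM in antiCD47), and of 8 monocyte markers 4 rose (42.6 to 60.3 and 54.1 to 75.7 CPM). The monocyte markers were mixed, with 2 below 0 and not past the threshold. These were Cx3cr1 (log2 fold change -0.96, edgeR adjusted p = 0.0873) and Ccr2 (-0.18, edgeR adjusted p = 0.306). Neutrophil, Kupffer cell, monocyte and hepatocyte sums were all highest in antiCD47 2, the library in which most members were highest. The hepatocyte sum was 91760 CPM there and 83930 CPM in antiCD47 3. AntiCD47 2 was also the highest of the 8 libraries for 26.8% of all genes. Erythroid markers rose in 7 of 9 tested, and their sum was highest in antiCD47 4. The other erythroid markers, Klf1 (-0.39) and Epor (-0.53), were below 0 and did not pass. Plasmacytoid dendritic cells, the known main producers of interferon alpha, had summed markers of 1.75 to 3.33 CPM in IgG and 1.298 to 2.48 CPM in antiCD47, with 0 of 5 tested markers higher and 1 lower. T and NK cell markers were at 5.53 to 23.8 and 5.59 to 14.8 CPM with 0 of 12 past the test in edgeR (0 at an unadjusted p under 0.05), and 1 of 8 B and plasma cell markers rose (13.03 to 37.1 and 38.3 to 73.1 CPM). Cholangiocyte markers fell in 4 of 5 (391 to 537 and 93.1 to 324 CPM), and hepatocyte markers, at 68380 to 73610 and 74360 to 91760 CPM, were present at the levels of liver with 1 of 9 tested past as higher. Sinusoidal endothelial markers had 0 of 8 past in edgeR (160 to 221 and 176 to 202 CPM; 1 higher and 1 lower at an unadjusted p under 0.05), and of 6 stellate cell markers 1 fell (497 to 662 and 414 to 532 CPM).

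In antiCD47 1, where the members' median was at -0.03, the neutrophil sum was 20.9 CPM and above every IgG library. Its Kupffer cell sum of 450 CPM was the lowest of its group and just above the 438 CPM of IgG 3, and its monocyte sum of 54.1 CPM was inside the IgG range. Total counts ran from 43691472 to 55477484 per library. The members rested on counts of 42 to 123 per library for Mx1 and 9083 to 15105 for Ifitm3, so counting error weighed most on Mx1, Mx2 and Oas1g.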

How the data were processed

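Polyadenylated liver RNA was made into 8 libraries with TruSeq chemistry, per the labels' protocols. Whole-number estimated counts of Ensembl genes were deposited by the authors. The submitters' processing notes name GRCm39, DESeq2 1.32.0 and Salmon 1.3.0 without a role for each, and do not say whether Salmon's estimates were rounded. The authors' deposited table, per the file headers, holds a mean normalized signal, a log2 fold change, a p-value with its adjusted value and a rank score per gene. Only its signs and adjusted p-values were used.

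Counts were filtered with filterByExpr by group, scaled by TMM and tested with the quasi-likelihood test of edgeR 4.0.16 (R 4.3.3), two-sided, with Benjamini-Hochberg adjustment over 15472 genes. CPM uses the TMM-scaled library size, and log2 CPM in library medians a prior count of 2. Total counts were 43691472 to 55477484 per library, and no 2 libraries of the same group agreed within sampling noise (lowest chi-square per degree of freedom 26.0). The labels do not tie a library to an animal. The p-values therefore set the group difference against the spread between these libraries, which may be technical. Alternatives were other scalings, other count filters, DESeq2 1.42.0, limma 3.58.1 (voom, with and without quality weights), a robust fit, a replicate block, leaving out libraries and an adjusted p of 0.1. The tests were checked on simulated data.

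The members and the pathway and marker lists were chosen by function, with earlier results of these data known. Members were named with values where they passed or crossed the threshold in any alternative, had the 2 smallest p of their role group, or were Isg15, Irf7, Ifit1 or Stat2; of each pathway list up to 4 genes past the threshold and Ifnar1, Ifnar2, Irf3, Sting1 and Cgas were named; the result of 1 further gene of that rule is not reported here. Of the marker genes 2 matched no gene. The reference (GENCODE M21 exon lengths, RefSeq gene order and promoters, GRCm38.p6) is of an older build than the counts and gave names, lengths, neighbours and promoter sequences only. Protein sequences were not used here.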

Additional observations from a re-analysis of the deposited data

Results flagged for a closer look

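Within a group of 4 libraries, 1 library stood apart from the other 3 (Dixon's test at 95%) in 7 of the 102 groups examined; chance gives about 1 in 20. AntiCD47 2 was the library that stood apart in 4 of them, each time on the high side. Isg15 was at 23.7 CPM there and at 8.93 to 11.3 CPM in the other antiCD47 libraries. Usp18 was at 15.3 CPM (others 10.6 to 11.0), Ifih1 at 42.1 CPM (others 36.3 to 36.9) and the receptor gene Ifnar1 at 46.8 CPM (others 37.5 to 38.2). AntiCD47 4 stood low for Ifi35, at 20.03 CPM against 22.2 to 22.6. IgG 1 stood low for Oas1g, at 1.49 CPM against 2.12 to 2.20 in the other IgG libraries, and for Rtp4, at 11.1 CPM against 15.9 to 16.3. What set these libraries apart was not tested.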

How the results depend on the processing

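The count of members higher, 4 with all libraries, was 8 with DESeq2 or at an adjusted p of 0.1, 9 with voom quality weights, 2 with voom or library totals, and 0 to 9 on leaving out 1 library: 0 without IgG 4, 1 without IgG 1, IgG 3 or antiCD47 3, 2 without antiCD47 2 or antiCD47 4, and 9 without antiCD47 1. Over the whole table, genes higher were 2 without IgG 4, 91 without IgG 1, 47 without IgG 3 and 17 without antiCD47 3. They were 368 without antiCD47 2, 824 without antiCD47 4 and 1843 without antiCD47 1. Members lower were 1 with library totals or quality weights. Pathway genes higher, 11 at first, were 24 with DESeq2, 28 at an adjusted p of 0.1, 35 with quality weights, 6 without both libraries numbered 2, and 0 to 34 without 1 library; 2 were lower with library totals. All genes higher (842) were 1683 with DESeq2, 1850 at 0.1, 2133 with quality weights, 428 with library totals and 2 to 1843 without 1 library; all lower (836) were 1491, 1724, 2198, 3153 and 0 to 1787, and 516 without both libraries numbered 2. With the replicate number as a block, 8 members and 25 pathway genes were higher; same-numbered libraries correlated at 0.032, 0.157, -0.023 and 0.035 in their deviations, so the numbers were not taken as pairs. With library totals 8 members turned negative (Bst2, Ddx58, Dhx58, Ifi27, Ifi35, Ifih1, Ifit2 and Ifit3b), and with the upper quartile 4 (Ddx58, Dhx58, Ifih1 and Ifit3b). Among the genes followed through each alternative, signs turned with library totals for Dhx58 (-0.19), Ifih1 (-0.16), Ifi27 (-0.01), Ifnar1 (-0.027), Ifnar2 (-0.078) and Irf3 (-0.09), with the upper quartile for Dhx58 (-0.058) and Ifih1 (-0.038), with quality weights for Dhx58 (-0.015) and Sting1 (0.014), and without both libraries numbered 2 for Dhx58 (-0.12), Ifih1 (-0.037) and Mx1 (-0.027). On leaving out 1 library Dhx58 ranged from -0.067 to 0.125 and Ifih1 from -0.027 to 0.057. Apart from library totals and single libraries, whose construction scales or removes samples, the cause was not tested. The median member stayed above 0 throughout, from 0.12 to 0.40.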
